A study of Mus musculus with 12 samples.

Results

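The genes described here encode the proteasome and the enzymes that attach ubiquitin to proteins or remove it. They were chosen by symbol, as every probe with 1 gene symbol beginning with Psm and a letter from a to g, with Ube2, with Ubr, or with Usp and a digit, apart from Usp18. This gave 61 genes on 78 of the 8734 probes, of 5723 genes with a probe of their own. A value on all 10 arrays used was available for 49 of the 61 genes, on 58 of the 5713 probes tested, and each gene is given by its brightest probe. The other 12 genes (Psma5, Psmb3, Psme4, Ube2d2a, Ube2e1, Ube2l3, Ube2q1, Usp7, Usp19, Usp36, Usp39 and Usp47) had gaps and were not tested.

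The proteasome is the protease complex that degrades ubiquitin-tagged proteins. Its 20S core is a barrel of alpha and beta rings, its 19S cap recognises, unfolds and deubiquitinates substrates, and dedicated chaperones assemble both. Ubiquitin is passed from an E1 to an E2 enzyme (the Ube2 family) and then, by an E3 ligase such as the Ubr proteins, to the substrate, while ubiquitin-specific proteases (the Usp family) take it off again. Signalling from the interleukin-1 receptor to NF-κB uses this system, since IκBα is tagged and destroyed by the proteasome after the receptor is engaged. The members by symbol also include Usp6nl, a Rab GTPase-activating protein, and Psme3ip1, a protein that binds the activator Psme3, which are neither subunits nor ubiquitin enzymes.

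The study measured RNA from mouse primary mixed glial cells, cultures kept after isolation for 10 to 12 days and then treated for 4 h. The 4 groups were IL-1R1-/- glia given 10 ng/ml rrIL-1β, IL-1R1-/- glia given vehicle, wild-type glia given 10 ng/ml rrIL-1β and wild-type glia given vehicle. IL-1R1 is the receptor through which IL-1β signals. Each group was deposited with 3 replicates, and both treatments were applied within each biological replicate, called a culture below. Of strain, sex, age and the animals behind each culture nothing was stated.

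Both arrays of IL-1R1-/- culture 3 were copies and were left out. Its IL-1β column equalled the vehicle column of IL-1R1-/- culture 1 divided by 1.67 at 6531 of 6584 shared probes, and its vehicle column equalled that of wild-type culture 1 times 1.12 at 5959 of 5982. This leaves 2 IL-1R1-/- and 3 wild-type cultures, and precision is limited by this number of arrays. Median intensities of the 10 arrays lay between 4649 and 60399, so levels are given as log2 intensity after quantile normalization, which gives every array the same distribution. Intensities of different probes depend on the spots, so no member's level is set against another's. The probe for Il1r1, the gene targeted in these mice, read 13.86 to 14.17 in IL-1R1-/- glia and 13.73 to 15.03 in wild-type glia. These ranges overlapped, and whether the probe lies inside the deleted part is not given. Of the cell type markers, 2 for astrocytes, 3 for microglia, 2 for oligodendrocytes, 1 for neurons, 1 for fibroblasts and 2 for endothelium were measured on all 10 arrays, and the astrocyte marker Gfap had no probe of its own. With no background level deposited, intensities cannot show which of these markers was absent. In bulk RNA, fewer cells of a type and less RNA per cell cannot be told apart.

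A property of the arrays bears on every response below. In wild-type glia, the IL-1β change of a probe resembled that of its neighbours in the probe order, with a correlation of 0.64 across probes 1 place apart. Counts for each comparison, and the changes of many but not all named members, are therefore given a second time with this position trend removed. That correlation was then 0.09. Probes are not independent replicates, and these correlations carry no test.

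In wild-type glia, 6 of the 49 members passed the threshold of an adjusted p of 0.05 after IL-1β (limma, Benjamini-Hochberg over all probes, 3 pairs). Ubr3, Ube2j1, Psmg3 and Psmf1 rose, and Psme3ip1 and Psmg2 fell. Ubr3 is counted by a probe that was its brighter one only with the IL-1β arrays included. Over all 5713 probes, 6.18% passed, 4.55% as higher and 1.63% as lower, and the members' share was 12.2%. With the position trend removed, 0 of the 49 passed, against 0.403% of all probes, and the lowest adjusted p among the members was 0.218. At an unadjusted p under 0.05 there were 12 of 49 members against 21.1% of probes, and 5 of 49 against 11.2% with the trend removed. Wild-type groups that did not overlap were found for 6 of 49 members, against 15.5% of all probes.

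The promoters of the 4 genes that rose are shown because these members passed the threshold in the same direction in wild-type glia. Promoter sequences were taken from RefSeq on GRCm38.p6, in a table that held 48 of the 61 members. Capitals mark GGGNNNNNCC, the outer frame of an NF-κB site, and TGACNNNGC, the core of the antioxidant element that Nfe2l1 uses at proteasome genes, on either strand and also where matches overlap. Each runs 5′ to 3′ on the strand of the gene: Ubr3 on chr2:69896996-69897295 (+ strand), Ube2j1 on chr4:33031130-33031429 (+ strand), Psmg3 on chr5:139826845-139827144 (- strand) and Psmf1 on chr2:151741261-151741560 (- strand).
Ubr3: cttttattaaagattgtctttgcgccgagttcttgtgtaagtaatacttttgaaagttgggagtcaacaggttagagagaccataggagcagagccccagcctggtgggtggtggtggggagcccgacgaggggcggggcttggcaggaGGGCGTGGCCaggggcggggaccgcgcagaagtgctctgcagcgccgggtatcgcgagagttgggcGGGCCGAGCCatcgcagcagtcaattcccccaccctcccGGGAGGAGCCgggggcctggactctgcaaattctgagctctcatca
Ube2j1: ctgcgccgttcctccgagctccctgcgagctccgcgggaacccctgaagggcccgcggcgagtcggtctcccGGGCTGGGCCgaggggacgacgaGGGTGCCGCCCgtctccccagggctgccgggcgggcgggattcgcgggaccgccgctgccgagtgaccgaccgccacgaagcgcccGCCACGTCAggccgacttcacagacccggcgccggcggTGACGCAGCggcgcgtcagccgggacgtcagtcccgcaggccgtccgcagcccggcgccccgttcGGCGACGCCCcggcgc
Psmg3: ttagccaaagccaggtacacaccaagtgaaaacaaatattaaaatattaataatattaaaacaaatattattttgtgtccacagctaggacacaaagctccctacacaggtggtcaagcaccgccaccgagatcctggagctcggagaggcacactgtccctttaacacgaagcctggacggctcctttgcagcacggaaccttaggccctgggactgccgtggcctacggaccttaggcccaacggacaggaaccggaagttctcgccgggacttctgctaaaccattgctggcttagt
Psmf1: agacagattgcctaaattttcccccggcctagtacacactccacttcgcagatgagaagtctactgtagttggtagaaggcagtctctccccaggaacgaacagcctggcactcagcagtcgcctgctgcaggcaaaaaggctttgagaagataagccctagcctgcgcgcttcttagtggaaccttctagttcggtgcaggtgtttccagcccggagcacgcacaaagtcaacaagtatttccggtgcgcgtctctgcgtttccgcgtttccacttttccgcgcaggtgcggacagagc
GGGNNNNNCC was found in the Ubr3 and Ube2j1 windows and TGACNNNGC in the Ube2j1 window, and neither was found in the Psmg3 and Psmf1 windows. Of the 50 promoters listed for the 48 members, 68% held the first and 8% the second, against 50.8% and 12.4% of all 32851 promoters in the table. GGGCGG, the GC box, was in the Ubr3 and Ube2j1 windows and in 72% of the member promoters and 35.7% of all promoters. CCAAT was in none of the 4 windows, in 26% of the member promoters and in 37.4% of all. A match to these letters is a description of the window and not a measured binding site.

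**Figure D1:**
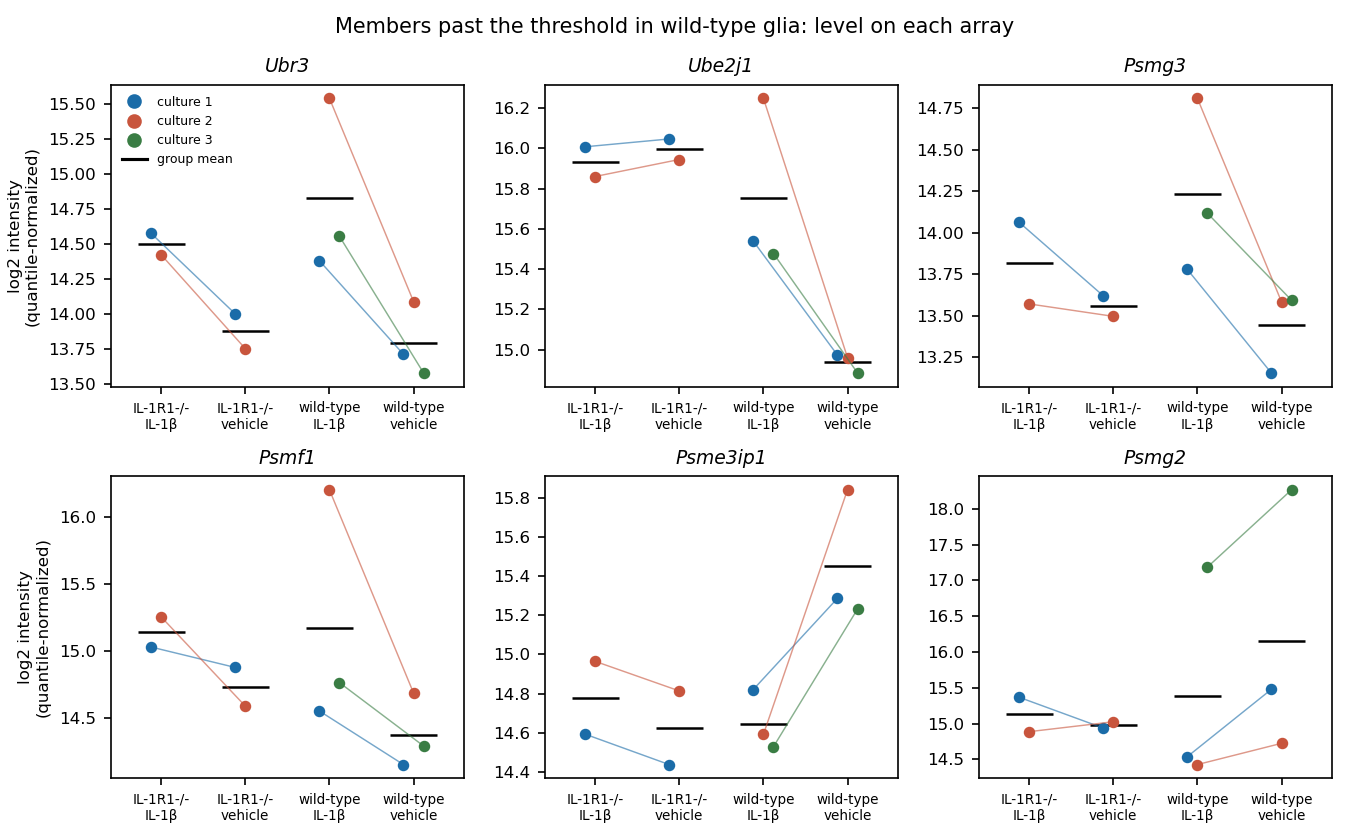
Log2 intensity (vertical axis, quantile-normalized) of the 6 members past the threshold in wild-type glia, on each of 10 arrays by group. Points are arrays coloured by culture, thin lines join the arrays of a culture, and black bars are group means. In wild-type culture 2 the IL-1β array is the highest of the 10 for Ubr3, Ube2j1, Psmg3 and Psmf1, and for Psmg2 both arrays of wild-type culture 3 stand above all others.

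Ubr3 encodes an E3 ligase of the N-recognin family. Its level was 14.58 and 14.42 in the IL-1β arrays of IL-1R1-/- cultures 1 and 2, against 14.00 and 13.75 in their vehicle arrays. In wild-type cultures 1, 2 and 3 it was 14.38, 15.54 and 14.55 after IL-1β, against 13.71, 14.09 and 13.57 after vehicle. The IL-1β arrays were above all vehicle arrays of their genotype in both genotypes. The wild-type change was 1.03 ± 0.19 (log2, SE, 3 pairs), a 2.05-fold rise with an adjusted p of 0.0135 by limma, and the IL-1R1-/- change was 0.62 ± 0.23 with an adjusted p of 0.601 (limma, 2 pairs). The difference between the genotypes, -0.41, did not pass. Without the trend the changes were 0.50 ± 0.17 in IL-1R1-/- glia and 0.47 ± 0.14 in wild-type glia, a difference of 0.03. A second Ubr3 probe did not show the rise: its wild-type change was -0.21 with an adjusted p of 0.557, and 0.12 with the trend removed.

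Ube2j1 encodes an E2 enzyme anchored in the membrane of the endoplasmic reticulum, where it serves the degradation of misfolded proteins. In IL-1R1-/- glia it read 16.01 and 15.86 after IL-1β and 16.05 and 15.94 after vehicle. In wild-type glia it read 15.54, 16.25 and 15.48 after IL-1β and 14.97, 14.96 and 14.88 after vehicle. The 3 wild-type vehicle arrays thus stood apart below the other 7, and the wild-type IL-1β arrays lay nearer to the IL-1R1-/- arrays, whose level was alike with either treatment. The wild-type change was 0.82 ± 0.19 (adjusted p 0.0291, limma) and the IL-1R1-/- change was -0.06 ± 0.23. With the trend removed the wild-type change was 0.18 ± 0.12 and the IL-1R1-/- change -0.37 ± 0.15. The second Ube2j1 probe read 13.89 to 14.22 in IL-1R1-/- glia and 13.92 to 14.34 in wild-type glia, with overlapping groups throughout and a wild-type change of 0.02.

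The other proteins of this group whose RNA rose were Psmg3, a chaperone for the alpha ring of the 20S core, and Psmf1, known as PI31, a proteasome-binding protein that inhibits the 20S core in vitro. Psmg3 read 14.06 and 13.57 in IL-1R1-/- glia with IL-1β and 13.62 and 13.50 with vehicle. In wild-type glia Psmg3 read 13.78, 14.81 and 14.12 with IL-1β and 13.15, 13.58 and 13.59 with vehicle. The wild-type groups did not overlap, and the change was 0.79 ± 0.19 (adjusted p 0.0306, limma). Psmf1 read 15.03 and 15.26 in IL-1R1-/- glia with IL-1β, 14.88 and 14.59 with vehicle. In wild-type glia Psmf1 read 14.55, 16.21 and 14.76 with IL-1β and 14.15, 14.69 and 14.29 with vehicle. Its wild-type groups overlapped, culture 2 gave the largest change (1.52, against 0.40 and 0.47 in cultures 1 and 3), and the adjusted p of 0.04999 was just inside the threshold. Removing the trend left 0.22 ± 0.13 for Psmg3 and 0.21 ± 0.14 for Psmf1.

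Psme3ip1 fell by 0.81 ± 0.19 on the log2 scale in wild-type glia (adjusted p 0.0291, limma), a 1.75-fold decrease. It read 14.59 and 14.96 in IL-1R1-/- glia with IL-1β and 14.44 and 14.81 with vehicle. In wild-type glia it read 14.82, 14.59 and 14.53 with IL-1β and 15.29, 15.84 and 15.23 with vehicle. The 3 wild-type vehicle arrays were the highest of all 10, the mirror image of Ube2j1. Its change was -0.37 ± 0.13 once the trend was removed.

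Psmg2 encodes the partner of Psmg1 in the dimer that starts assembly of the alpha ring, and it was the most variable member. It read 15.37 and 14.89 in IL-1R1-/- glia with IL-1β and 14.94 and 15.03 with vehicle. In wild-type glia it read 14.54, 14.43 and 17.19 with IL-1β and 15.48, 14.72 and 18.27 with vehicle. Both arrays of wild-type culture 3 read 17.19 or above and the other 8 read 15.48 or below, a wider gap than any response within a culture. Its SD over the 10 arrays was 1.25, at the 99.9 percentile of all probes, whereas the median SD was 0.33 for the members and 0.30 for all probes. Within cultures, the change was -0.94, -0.30 and -1.08 in wild-type cultures 1, 2 and 3, and the fitted -0.77 ± 0.20 passed with an adjusted p of 0.0389 (limma). Of the 6 members, Psmg2 lay farthest from its neighbours, whose median change was -0.08, and it kept -0.60 ± 0.19 with the trend removed (adjusted p 0.244). Its partner Psmg1 did not fall with it in wild-type glia, with 0.31 ± 0.17 and an adjusted p of 0.314.

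**Figure D2:**
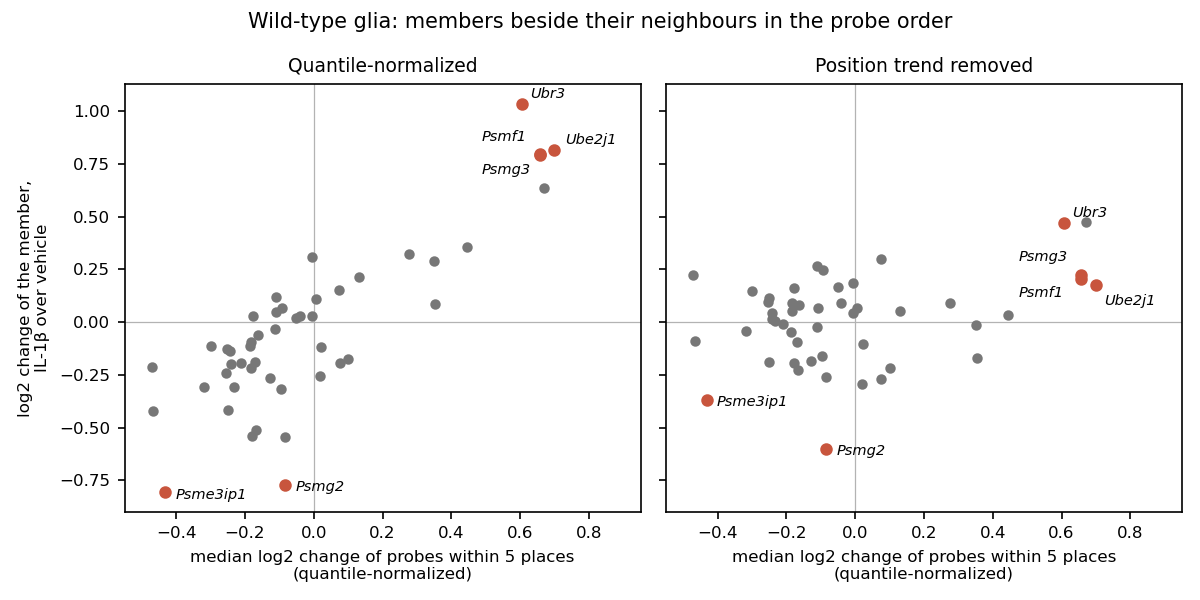
Log2 change of each member in wild-type glia (vertical axis) against the median change of the probes within 5 places of it in the probe order (horizontal axis), for the 48 members with at least 3 such neighbours. The left panel has quantile-normalized values and the right panel has the position trend removed, and the 6 members past the threshold are in red. The members follow their neighbours on the left (r = 0.84) and less so on the right (r = 0.37), and Psmg2 lies below its neighbours in both.

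The position of the members' probes was set beside their changes. Among the 48 members with 3 or more tested neighbours, the change in wild-type glia correlated with the neighbours' median at r = 0.84, and 36 had the same sign. The neighbours' median was 0.61 for Ubr3, 0.70 for Ube2j1, 0.66 for Psmg3, 0.66 for Psmf1 and -0.43 for Psme3ip1. All 4 members that rose were among the 22 whose probes lie in the second part of the probe order, where 8.52% of all probes rose and 0.199% fell. Both that fell were among the 27 in the first part, where 0.111% rose and 3.23% fell. In IL-1R1-/- glia the correlation with the neighbours was 0.65, and 0.17 with the trend removed. These correlations across members are descriptions, since neighbouring probes share the same arrays and normalization.

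**Figure D3:**
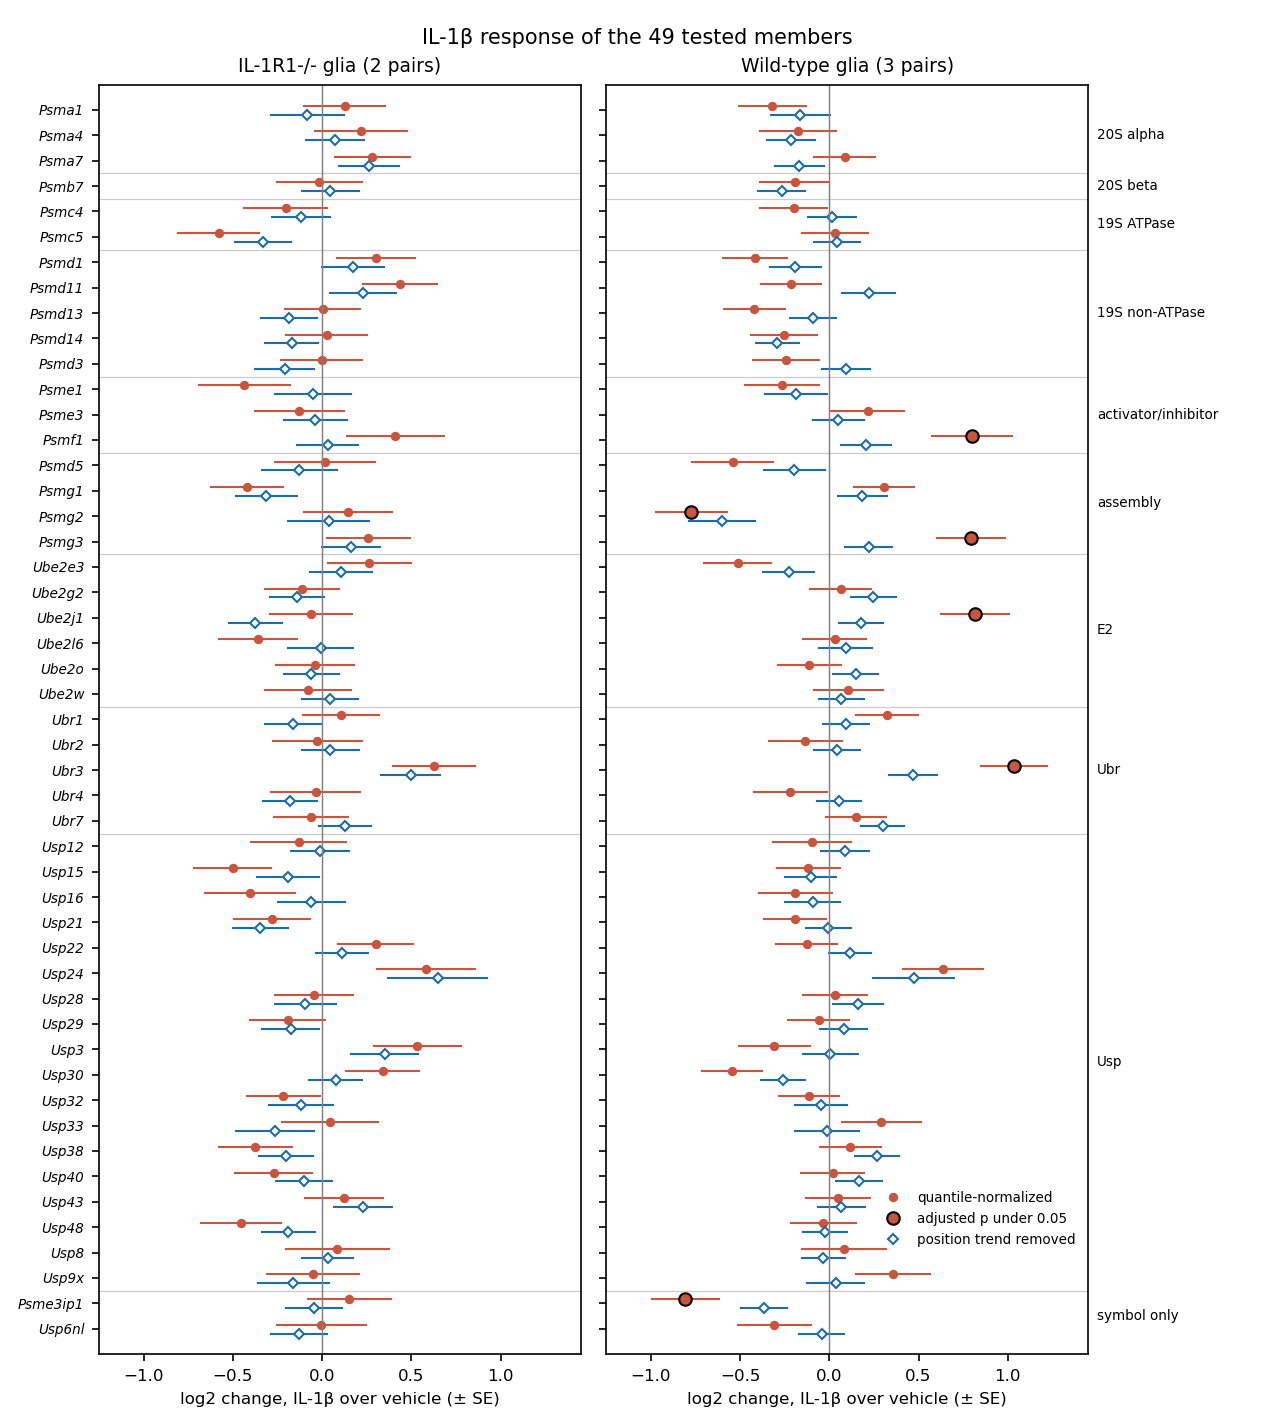
Log2 change after IL-1β with its standard error (horizontal axis) for the 49 tested members, ordered by role, in IL-1R1-/- glia (left) and wild-type glia (right). Filled circles are quantile-normalized values, outlined larger circles have an adjusted p under 0.05, and open diamonds have the position trend removed. All 5 of the 19S non-ATPase subunits lie left of 0 in wild-type glia, and none of the 49 diamonds has an adjusted p under 0.05.

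By role, the subunits of the proteasome itself showed no called change in wild-type glia. None of the 11 tested subunits of the 20S core and 19S cap passed. The 5 non-ATPase subunits of the 19S cap were all below 0, at -0.42 for Psmd1 and Psmd13, -0.25 for Psmd14, -0.24 for Psmd3 and -0.22 for Psmd11. Their median was -0.25, against -0.04 over all probes. All but Psmd14 have their probes in the first part of the probe order, where the median of all probes was -0.20. In the second part, which holds the Psmd14 probe, it was 0.15. The smallest adjusted p of the 5 subunits was 0.173. With the trend removed their median was -0.09 and Psmd3 and Psmd11 were above 0. Psmd14, the deubiquitinase of the cap, kept its value, at -0.29 ± 0.12 with the trend removed (adjusted p 0.376). The 19S ATPases Psmc4 and Psmc5, which unfold substrates, were at -0.20 ± 0.19 and 0.03 ± 0.18. The 20S subunits Psma1, Psma4, Psma7 and Psmb7 were at -0.32, -0.18, 0.09 and -0.20, and all 4 were below 0 with the trend removed, between -0.27 and -0.16. A second probe for Psma7 gave -0.33 in place of 0.09, and one for Psmd1 gave -0.14 in place of -0.42.

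Among the regulators, Psme1, the interferon-inducible alpha subunit of the PA28 activator that favours peptide production for MHC class I, did not pass at -0.27 ± 0.21. Its nuclear relative Psme3 was at 0.21 ± 0.20. The immunoproteasome subunits Psmb8, Psmb9 and Psmb10, the PA28 beta subunit Psme2 and Ube2n, the E2 of lysine-63 chains in the receptor pathway, had no probe with a single gene symbol, so no value is given for them. Of the 4 assembly chaperones tested, Psmg3 rose, Psmg2 fell, and Psmg1 and Psmd5 did not pass, the last at -0.54 ± 0.23 with changes of 0.24, -0.87 and -0.998 in the 3 cultures.

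Of the 6 E2 enzymes, only Ube2j1 passed in wild-type glia. Ube2e3 was at -0.51 ± 0.19 (adjusted p 0.129) and Ube2l6, the E2 for the ubiquitin-like protein ISG15, was at 0.03 ± 0.18. Ube2o, a large enzyme that acts as both E2 and E3, was the steadiest member, with an SD of 0.12 over the 10 arrays. Among the 5 N-recognin relatives, Ubr1, the classic N-recognin, was at 0.32 ± 0.17 and Ubr2, Ubr4 and Ubr7 lay between -0.22 and 0.15. Without the trend all 5 were above 0, with a median of 0.09, and Ubr7 stood at 0.30 ± 0.12 (adjusted p 0.351).

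None of the 18 ubiquitin-specific proteases passed by its brightest probe, and their median change in wild-type glia was -0.05. Usp30, a deubiquitinase of the mitochondrial outer membrane that opposes mitophagy, was nearest. It read 15.16 and 15.12 in IL-1R1-/- glia with IL-1β and 14.84 and 14.77 with vehicle. In wild-type glia Usp30 read 14.70, 14.55 and 14.55 with IL-1β and 15.18, 15.05 and 15.20 with vehicle. The wild-type groups did not overlap and the IL-1R1-/- groups lay the other way round, at -0.54 ± 0.17 in wild-type glia (adjusted p 0.0715) and 0.34 ± 0.20 in IL-1R1-/- glia (adjusted p 0.737, both limma). Without the trend the wild-type change of Usp30 was -0.26 ± 0.12. Usp24 was at 0.58 ± 0.27 in IL-1R1-/- glia (adjusted p 0.652) and 0.64 ± 0.22 in wild-type glia (adjusted p 0.110, both limma). With the trend removed it was at 0.65 ± 0.28 and 0.47 ± 0.23. In wild-type culture 1 Usp24 read lower with IL-1β than with vehicle, at 14.28 against 14.35, and at 14.47 against 14.66 with the trend removed. In wild-type cultures 2 and 3 it read higher with IL-1β in both forms. For Usp12, the brightest probe was at -0.10 while a dimmer probe read -0.76 with an adjusted p of 0.0306 and -0.47 with the trend removed, so the 2 probes disagreed.

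Over the cultures, 20 of the 49 members changed in the same direction in all 3 wild-type pairs, against 39.9% of all probes. After trend removal the numbers were 15 of 49 and 30%. The SD of the members' changes was 0.32, 0.59 and 0.51 in wild-type cultures 1, 2 and 3, and 0.34 and 0.36 in IL-1R1-/- cultures 1 and 2. The changes were wider in wild-type cultures 2 and 3 than in culture 1, and without culture 2 none of the members passed in wild-type glia, against 4 without culture 3 and 1 (Ubr3) without culture 1. The count was 5 without IL-1R1-/- culture 1 and 1 without IL-1R1-/- culture 2.

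In IL-1R1-/- glia 0 of the 49 members passed after IL-1β by limma, and 0% of all probes. At an unadjusted p under 0.05 there were 4 members, against 7.6% of probes: Ubr3 at 0.62 ± 0.23, Usp3, a histone deubiquitinase, at 0.53 ± 0.24, Psmc5 at -0.58 ± 0.23 and Usp15, a deubiquitinase, at -0.50 ± 0.22. Their adjusted p-values were 0.601 to 0.642 (limma, 2 pairs). Psmc5 read 16.08 and 15.65 with IL-1β and 16.74 and 16.15 with vehicle in IL-1R1-/- glia, so that its groups did not overlap. It passed with arrays centred on the median in place of quantile normalization (-1.01, adjusted p 0.0139, limma) and with no normalization (-0.98). Ranges that did not overlap were found for 19 of 49 members in this genotype, against 36.7% of all probes, and with 2 arrays a group this is frequent. After trend removal Psmc5 was at -0.33 ± 0.16 and Usp3 at 0.35 ± 0.19, and 4 members had an unadjusted p under 0.05, against 6.28% of probes. Psme1 was at -0.44 ± 0.25 and -0.05 with the trend removed, Psme3 at -0.13 ± 0.25 and Ube2l6 at -0.36 ± 0.22.

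The difference between the genotypes in their response, IL-1R1-/- minus wild-type, passed for 0 of 49 members, against 0.158% of all probes with and without the trend. At an unadjusted p under 0.05 there were 9 members, against 14.1% of probes. The response was more negative in IL-1R1-/- glia for Ube2j1 at -0.88 ± 0.30 (95% interval -1.52 to -0.24) and Psmg1 at -0.73 ± 0.26. It was more positive in IL-1R1-/- glia for Usp30 at 0.88 ± 0.26, Psme3ip1 at 0.96 ± 0.30, Psmg2 at 0.92 ± 0.32, Usp3 at 0.84 ± 0.31, Ube2e3 at 0.78 ± 0.30, Psmd1 at 0.72 ± 0.28 and Psmd11 at 0.65 ± 0.27. The smallest adjusted p was 0.188, for Usp30 (limma). Means of a second Psmd1 probe were 15.45 (IL-1β) and 15.55 (vehicle) in IL-1R1-/- glia, and 15.61 and 15.76 in wild-type glia. With arrays centred on the median Ube2j1 passed at -1.29 (adjusted p 0.0181, limma), and Psmc5 at -1.05 and Psmg1 passed too. With the trend removed 3 members had an unadjusted p under 0.05, against 8.07% of probes.

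For Usp30 the change was 0.32 and 0.36 in the 2 IL-1R1-/- cultures and -0.48, -0.50 and -0.65 in the 3 wild-type cultures. For Psmg1 it was -0.36 and -0.48 in the IL-1R1-/- cultures and 0.30, 0.32 and 0.30 in the wild-type cultures. For both genes the values of the 2 genotypes lay on opposite sides of 0. With the trend removed Psmg1 was at -0.26 and -0.37 in the IL-1R1-/- cultures and at 0.15, -0.10 and 0.50 in the wild-type cultures, so that wild-type culture 2 was then below 0 as well. Responses that did not overlap between genotypes were found for 18 of 49 members, against 32.5% of all probes. After trend removal, the difference went from -0.73 to -0.50 ± 0.22 for Psmg1 and from -0.88 to -0.55 ± 0.19 for Ube2j1. It was then 0.33 ± 0.19 for Usp30, 0.32 ± 0.20 for Psme3ip1 and 0.01 ± 0.24 for Psmd11.

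**Figure D4:**
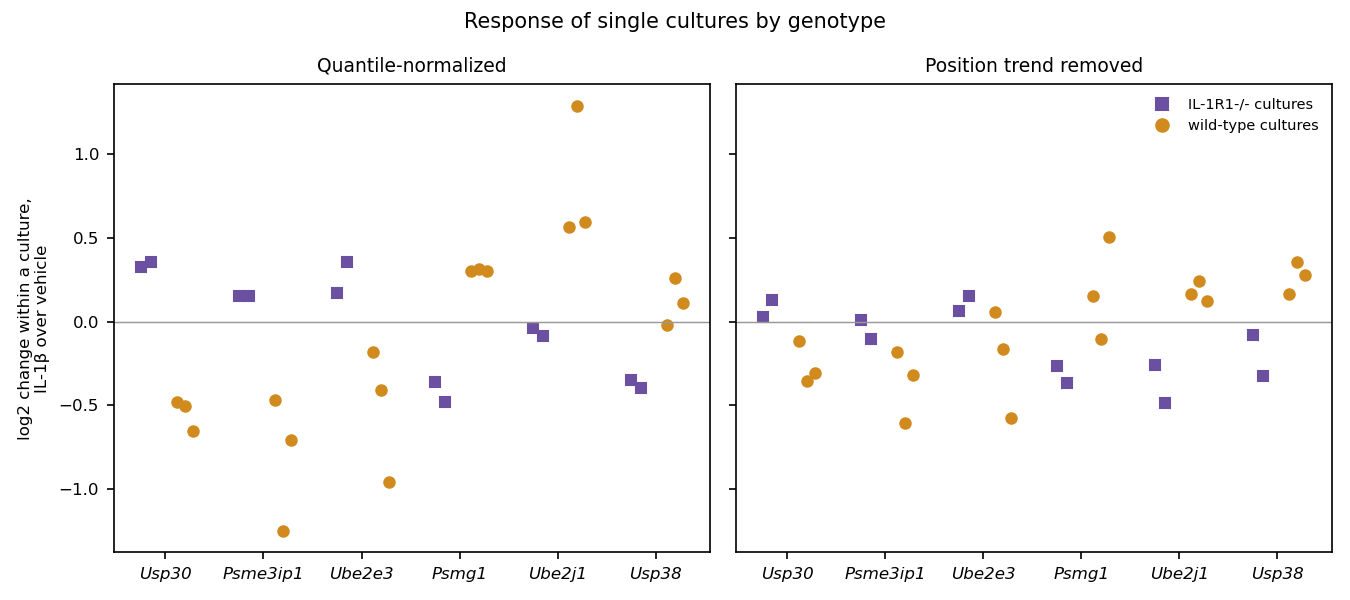
Log2 change after IL-1β within each culture (vertical axis) for 6 of the 18 members whose responses did not overlap between genotypes. Purple squares are the 2 IL-1R1-/- cultures and orange circles the 3 wild-type cultures, quantile-normalized on the left and with the position trend removed on the right. Usp30 and Psmg1 lie on opposite sides of 0 in the left panel, and the gap between the genotypes is smaller in the right panel for all 6 genes.

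In vehicle glia, which received no cytokine, 0 of 49 members differed between IL-1R1-/- and wild-type cultures, against 0.0175% of all probes. Ube2j1 had the smallest p, at 1.06 ± 0.26 in IL-1R1-/- minus wild-type glia (95% interval 0.50 to 1.61, adjusted p 0.137, limma with cultures as a random block). It kept 0.79 ± 0.18 with the trend removed (adjusted p 0.25), and it passed with wild-type culture 2 left out, at 1.17 with an adjusted p of 0.0481, and with arrays centred on the median, at 1.49 with an adjusted p of 0.0134 (both limma). For its second probe the vehicle arrays overlapped. Usp48 read 15.77 and 15.49 in IL-1R1-/- vehicle glia, against 15.07, 14.89 and 14.76 in wild-type vehicle glia, a difference of 0.72 ± 0.25 that was 0.59 ± 0.17 with the trend removed. Usp9x, a deubiquitinase encoded on the X chromosome, read 14.68 and 15.44 in IL-1R1-/- vehicle glia, against 14.08, 14.39 and 14.26 in wild-type vehicle glia, at 0.82 ± 0.29. Both had an adjusted p of 0.382. The smallest p among lower values was that of Psme3ip1, at -0.83 ± 0.26 (adjusted p 0.313, limma), and -0.42 ± 0.18 with the trend removed. Psmg2 had the widest difference, -1.18 ± 0.78 (adjusted p 0.748), which went with the high arrays of wild-type culture 3. At an unadjusted p under 0.05 there were 6 members, against 8.56% of probes, and 7 with the trend removed, against 7.74%. Groups that did not overlap were found for 15 of 49 members, against 28.4% of all probes.

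Of 18 tested Psm genes without Psme3ip1, 13 were below 0 in IL-1R1-/- minus wild-type vehicle glia, with a median of -0.32, against -0.03 over all probes. This shift depended on the scaling. With arrays centred on the median it was -0.04 against 0.02 over all probes, and with no normalization 1.74 against 1.80, with 11 of 18 genes below the median of all probes each time. With the trend removed 14 of 18 were below 0 with a median of -0.18, against 0.00 over all probes. By their brightest probes the 19S non-ATPases were all 5 lower, led by Psmd1 at -0.72 ± 0.24 (adjusted p 0.377), while the ATPase Psmc5 was higher at 0.69 ± 0.35. A second Psmd1 probe had overlapping vehicle groups, at 15.24 and 15.85 in IL-1R1-/- glia and 15.69, 15.57 and 16.01 in wild-type glia. Under IL-1β the median of the same 18 genes was -0.02, and -0.17 with the trend removed, with 11 and 15 genes below 0. The median deviation of the 19 Psm genes from their own means was -0.22 to -0.06 on the 4 IL-1R1-/- arrays and -0.00 to 0.16 on the 6 wild-type arrays. These ranges did not overlap, but with the trend removed they did, at -0.21 to 0.00 and -0.06 to 0.17. No single Psm gene passed, so this is a count and a median without a test.

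Psme1 was the second most variable member by SD over the arrays (0.70, at the 98.1 percentile). It read 14.06 and 13.89 in IL-1R1-/- glia with IL-1β, against 15.79, 14.69 and 14.19 in wild-type glia with IL-1β. With vehicle it read 14.50 and 14.31 in IL-1R1-/- glia, against 15.58, 15.58 and 14.31 in wild-type glia. In vehicle glia wild-type culture 3 was close to the IL-1R1-/- cultures and wild-type cultures 1 and 2 were above them, while within wild-type culture 2 the IL-1β array was below the vehicle array. The difference was -0.92 ± 0.41 with IL-1β (adjusted p 0.953) and -0.75 ± 0.41 with vehicle (adjusted p 0.667). In IL-1β-treated glia 0 of 49 members differed between the genotypes, against 0.07% of all probes, and 2 had an unadjusted p under 0.05, Psme1 and Usp30 (0.54 ± 0.20), against 4.97% of probes. Groups did not overlap for 8 members, against 18% of probes. After trend removal 0 members passed, against 0.105% of probes, and 2 had an unadjusted p under 0.05, against 5.55%. Ube2l6 was at -0.51 ± 0.25 and Psme3 at -0.48 ± 0.29 in this comparison.

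**Figure D5:**
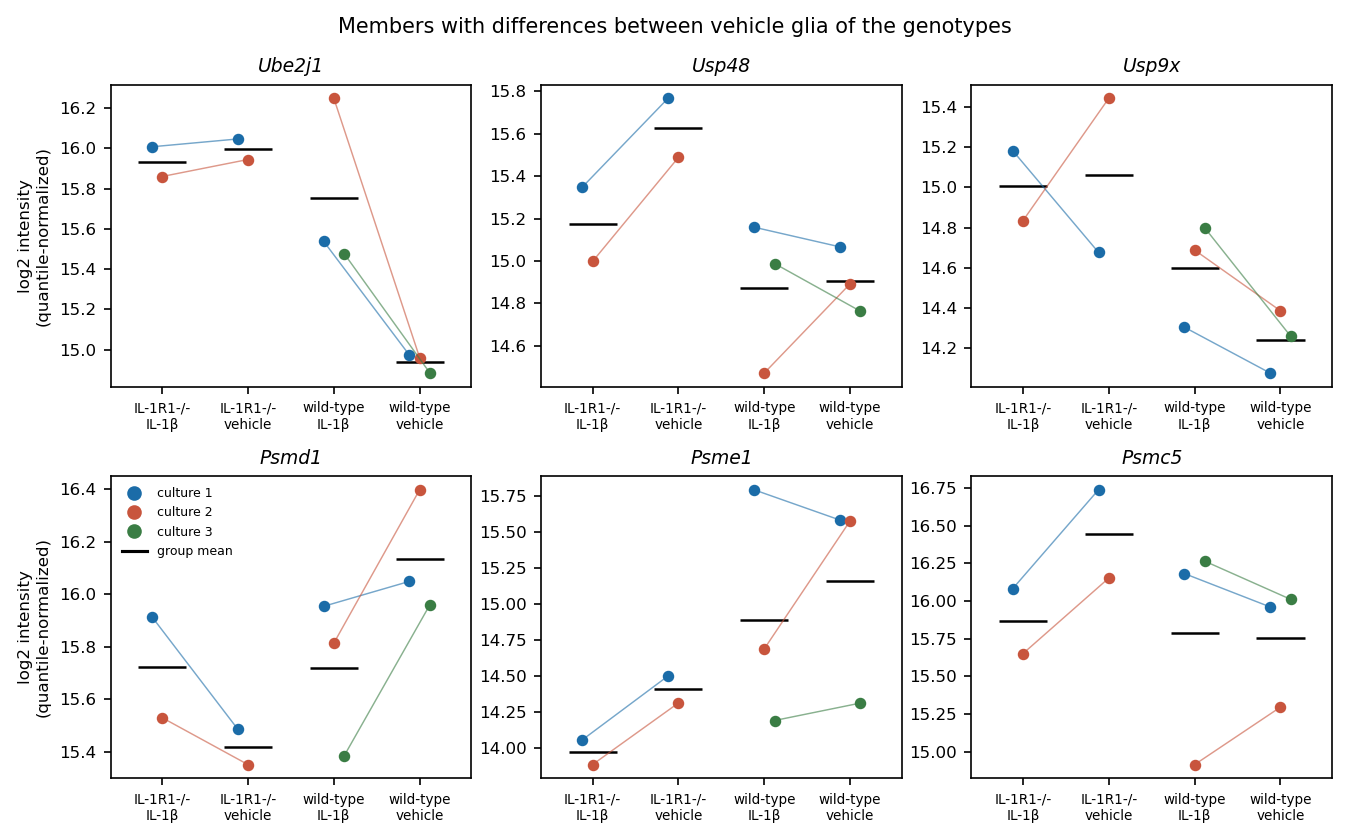
Log2 intensity (vertical axis, quantile-normalized) on each array by group for Ube2j1, Usp48, Usp9x, Psmd1, Psme1 and Psmc5. Points are arrays coloured by culture, thin lines join the arrays of a culture, and black bars are group means. The IL-1R1-/- vehicle arrays lie above the wild-type vehicle arrays for Ube2j1, Usp48, Usp9x and Psmc5 and below them for Psmd1.

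Other genes of the ubiquitin pathway were counted for comparison in wild-type glia. Among 4 other deubiquitinases Cyld, which trims lysine-63 and linear chains in NF-κB signalling, rose by 0.92 ± 0.18 (adjusted p 0.0154, limma). Among 4 cullins Cul7 fell by 1.01 ± 0.21, and of 2 COP9 signalosome subunits Cops4 fell by 0.95 ± 0.18. The Cyld probe lies within 5 places of that of Ubr3 in the probe order, and the Cul7 probe is next to that of Psme3ip1. Both are thus among the neighbours described above. None of 3 E1 enzymes, 4 shuttle and accessory factors or 2 genes of MHC class I loading passed. In the ISG15 system, Usp18, which removes ISG15, rose by 0.89 ± 0.20 and Uba7 did not pass. Of 12 genes of ubiquitin signalling at the IL-1 receptor, Nfkbia, which encodes IκBα, the proteasome substrate of this pathway, rose by 1.79 ± 0.19 and the ubiquitin ligase Birc3 by 0.95 ± 0.17. After trend removal only Nfkbia passed among these genes, at 1.62 ± 0.16 (adjusted p 5.9e-04), and it was also the one gene of these lists whose response differed between genotypes (-1.72 ± 0.31, adjusted p 0.0423). Traf6 and Btrc, the ligases that act above and on IκBα, did not pass, at -0.23 and 0.19. Among the cell type markers, the astrocyte gene Glul fell by 0.84 ± 0.20 in wild-type glia (adjusted p 0.0291), and with the trend removed it was at -0.47 ± 0.15 (adjusted p 0.239). The other 10 markers did not pass, and their part in the members' values was not tested.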

How the data were processed

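The deposited values of the authors are linear spot intensities of 8734 probes on arrays hybridised with 33P-labelled cDNA, per the labels, in 1 table. Software, background correction, scaling and filter: not given in the sources used here. Both arrays of any culture lack the same probes, and array medians differed by up to 3.70 on the log2 scale.

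Log2 intensities of 10 arrays were quantile-normalized and fitted with lmFit and eBayes (limma 3.58.1, R 4.3.3) over the 5713 probes with a value on all of them. Culture was a fixed block with 1 IL-1β term per genotype. Genotype differences within a treatment used 4 group means and a random culture block (duplicateCorrelation, statmod 1.5.0; correlation within cultures 0.388, and 0.452 with the trend removed). P-values are two-sided and adjusted over all 5713 probes by Benjamini and Hochberg, with a threshold of 0.05. The position trend was removed by a loess surface (span 0.2) over plate row and column in each part of the probe order, plates 1 to 11 and 12 to 23, of each array's deviation from the mean of all arrays. This layout of 16 by 24 wells was inferred from the values.

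Gene names came from the platform annotation: 7153 probes had 1 symbol, 387 several and 1194 none, and 0 symbols changed against a current table. Each gene is given by its brightest tested probe. The text names members past the threshold, and up to 6 per direction by smallest p where fewer passed, plus Psme1, Psme3 and Ube2l6. The members and lists were chosen with earlier results of these data known.

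The design text states paired treatments, and deviations from the group means correlated between both arrays of a culture (across probes) at 0.562 for the IL-1R1-/- cultures and at 0.468, 0.582 and 0.261 for the wild-type cultures. The fit was run on simulated arrays without a position trend, so it cannot speak to calls made under that trend. It recovered 34% of the wild-type changes of 0.5 log2 and 98% of those of 1 log2. Of its 180 calls 14 were false. Alternatives changed the normalization, the trend, the background, dim and incomplete probes, the copied columns, the block and the cultures used.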

Additional observations from a re-analysis of the deposited data

How the results depend on the processing

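In wild-type glia the 6 members passed with no normalization between arrays, with arrays centred on the median, with background subtracted and with gaps kept, and 4 passed without the dimmest probes or with wild-type arrays fitted alone. The count was 3 with all 12 columns, 1 with the sources of the copied columns left out, and 0 with the position trend removed, with or without median centring. It was 0 with no replicate block, also with the trend removed, and the block changed no other count. Leaving out 1 culture gave 0 to 5 members, and 0 in every such fit with the trend removed, as with 12 columns. Ubr3 passed in all of these leave-one-out fits but the one without wild-type culture 2 (0.84, adjusted p 0.0742, limma). These values are from the Ubr3 probe that was brighter only with the IL-1β arrays included. The second Ubr3 probe was at -0.21 in the main fit. In IL-1R1-/- glia 2 members passed, both lower, with no normalization, with median centring and with both median centring and trend removal, Psmc5 in all 3 of these (-0.98, -1.01 and -0.72). The difference between genotypes passed for 2 members with no normalization and 3 with median centring (Ube2j1, Psmc5 and, in the second, Psmg1), and the vehicle difference for 1 with median centring and 1 without wild-type culture 2, Ube2j1 both times. Leaving out 1 culture otherwise gave 0. The cause of these moves was not tested. Over all probes no normalization and median centring gave 153 and 177 calls in IL-1R1-/- glia and 240 and 264 for the difference. Median centring gave 102 in vehicle glia.

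Of 1059 values of 70 named results, 972 kept direction and side of the threshold, 45 lost the call, 12 gained it and 30 changed sign. With no normalization the median of all probes was 1.80 in IL-1R1-/- minus wild-type vehicle glia and 1.78 in IL-1β glia, so that signs turned with it. In vehicle glia Psme3ip1 was then 1.12, Psmd1 1.46, Psmd11 1.26, Psmd13 1.40, Ubr4 1.26, Psme1 1.08, Psme3 1.73 and Ube2l6 1.73. In IL-1β glia Psme1 was 0.82, Ube2l6 1.29, Psme3 1.33, Psmc4 1.30, Psmg1 1.40 and Psmg3 1.38. With trend removal and median centring, the IL-1R1-/- change was -0.022 for Usp30, 0.027 for Psme1 and 0.0032 for Psme3, and the difference was -0.087 for Ube2e3, 0.018 for Psmg3 and 0.10 for Psme1. The difference for Psme1 was 0.13 with the trend removed, 0.016 with the copied sources left out, and -0.51 to 0.062 with 1 culture left out. With 1 culture left out the IL-1R1-/- change of Psme3 was -0.43 to 0.17, the wild-type change of Psme1 -0.49 to 0.064 and that of Ube2l6 -0.094 to 0.13 (-0.097 with the copied sources left out). The vehicle difference was then -0.46 to 0.19 for Psme3 and -0.34 to 0.10 for Ube2l6. Where 1 IL-1R1-/- culture remained, it was assumed to vary like the others. With the copied sources left out the genotype differences could not be fitted.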

Other observations

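Members with gaps were fitted separately where every group had enough values. With gaps allowed, so that each probe was fitted on the arrays where it had a value, Ube2l3, an E2 that serves the linear ubiquitin chain ligase, was at 0.00 ± 0.29 in IL-1R1-/- glia and -0.91 ± 0.29 in wild-type glia (adjusted p 0.0674, limma). Psmb3, a beta subunit of the 20S core, was at 0.05 ± 0.24 in IL-1R1-/- glia and -0.66 ± 0.24 in wild-type glia (adjusted p 0.111). Both genes had values in 2 wild-type pairs only, cultures 1 and 3. With arrays centred on the median these pairs changed by -0.25 and -1.51 for Ube2l3 and by -0.24 and -1.07 for Psmb3. Usp39, a splicing factor related to the proteases, was at 0.53 ± 0.22 in IL-1R1-/- glia and -0.22 ± 0.22 in wild-type glia (adjusted p 0.617 and 0.598). Of Usp7, a nuclear deubiquitinase, 3 probes gave wild-type changes of -0.29, -0.12 and 0.53. None of these passed the threshold in this fit, nor did Usp36 and Usp47. Psma5, Psme4, Ube2d2a, Ube2e1, Ube2q1 and Usp19 had only 1 value in some groups and were not fitted. The position trend was not removed in this fit.

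In all, 9 genes had 2 tested probes, and the pairs agreed in part. In wild-type glia both Usp48 probes were near 0, at -0.03 and -0.06, both Usp22 probes were at -0.13 and -0.14, and both Usp33 probes were above 0, at 0.29 and 0.61. The pairs for Ubr3 (1.03 and -0.21), Ube2j1 (0.82 and 0.02) and Usp12 (-0.10 and -0.76) had the widest gaps, and these are all the genes with 2 probes in which 1 probe passed. With the trend removed the values were 0.47 and 0.12 for Ubr3, 0.18 and -0.10 for Ube2j1 and 0.09 and -0.47 for Usp12.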
